A study of Mus musculus with 9 samples.

Results

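The 10 genes described here, Dppa2, Dppa3, Dppa4, Dppa5a, Fbxo15, Zfp42, Utf1, Tcl1, Tdh and Lin28a, are transcribed in mouse embryonic stem cells (mESC) and early embryos and are widely used as readouts of pluripotency. They were chosen by name. A row of the array was taken for a gene where the platform annotation gave that symbol alone, which held for 9 of the 10 genes and for 12 rows, of 23410 rows (transcript clusters) with a gene and 35556 in all. Dppa2, Dppa3 and Dppa4 had 2 rows each, which are given separately as row 1 and row 2. Tdh was not analysed here.

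The study profiled 9 mESC lines of C57BL/6 background, all labelled female, on Affymetrix whole-transcript arrays for mouse genes, with 1 array per line and 3 lines per group, to ask whether the conditions of the preimplantation embryo leave a trace in the stem cells made from it. The mESCWM lines (WM1, WM2 and WM3) came from embryos conceived by in vitro fertilization (IVF) and kept in Whitten's medium under 20% O2, the suboptimal culture. IVF embryos also gave rise to the mESCKAA lines (KAA1, KAA2 and KAA3), but were kept in KSOM with amino acids under 5% O2, the optimal culture. For the mESCFB lines (FB1, FB2 and FB3), blastocysts were conceived by natural mating and flushed from the uterus. The females were hormone-primed in all groups. All groups also shared the derivation, in which single blastocysts grew out on CF-1 embryonic fibroblast feeders in serum medium. The medium held LIF and the MEK and GSK3 inhibitors known as 2i. The lines were then moved from feeders to gelatin, and RNA was taken at the eighth passage. Each line therefore descends from 1 embryo, and the groups differ in fertilization, medium and O2 together, which cannot be told apart in mESCFB against the others, nor can medium and O2 between the IVF groups.

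All values are log2 levels made by RMA, which subtracts background, brings the arrays to a common distribution and summarises the probes of a cluster into 1 number. A difference of 1 on this scale is a doubling. Differences between groups were tested with limma across all 23410 clusters (two-sided, Benjamini-Hochberg adjusted), and with the rank product, which ranks every pairwise difference between lines and passes a cluster at a percentage of false positives (pfp) under 0.05. The number of arrays limits the precision. All 8 markers of naive mESC examined, Pou5f1, Sox2, Nanog, Esrrb, Klf2, Klf4, Tfcp2l1 and Zfp42, were above the median level of the clusters (4.67) in every line, with Pou5f1 between 10.07 and 10.43 and Nanog between 8.52 and 10.35. Against the female labels, the Y-linked gene Eif2s3y stood at 5.19 in WM3, 3.72 in KAA2 and 4.78 in FB1, and between 1.77 and 2.20 in the other 6 lines, and Uty was highest in the same 3 lines. Kdm5d, also Y-linked, did not follow, with 2.04, 1.96 and 2.04 in WM3, KAA2 and FB1 and its highest level, 2.46, in WM2. Xist, transcribed from an inactive X chromosome, was between 2.53 and 2.97 in those 3 lines and between 2.73 and 3.95 in the others. Differences without those 3 lines are therefore given beside the main ones. The array medians lay within 0.07 of each other. X-linked clusters were raised over autosomal ones, against their 9-line means, by 0.29 in FB2 and 0.14 in FB3, and in no other line. None of the 9 measured genes lies on the X chromosome in RefSeq, which does not give where the probes of each row lie. Dppa2 row 1 and Dppa4 row 1, of genes on chromosome 16, have neighbouring cluster numbers (10436053 and 10436050). Those of row 2 (10463138 and 10486954) lie far away. Dppa3 row 1 is 10541515, but row 2 (10604135) is numbered close to Map7d3 (10604694), which lies on the X chromosome. Row 2 of these genes may therefore lie elsewhere than the gene, which was not tested.

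The genes fall into several roles. Dppa2 and Dppa4 encode SAP-domain proteins that bind chromatin as a pair and keep CpG-rich developmental promoters primed, and Dppa3 (Stella) is a maternal factor that limits DNA methylation maintenance through Uhrf1. Fbxo15, Utf1 and Zfp42 (Rex1) are classical targets of Oct4 and Sox2, of which Fbxo15 is dispensable for mESC and has served as a reprogramming reporter. Tcl1 encodes a coactivator of Akt, Dppa5a an RNA-binding KH-domain protein, and Lin28a an RNA-binding protein that blocks maturation of let-7 microRNAs.

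No row of these genes passed either test in any comparison. In mESCWM against mESCFB, 0 of 12 rows passed limma, as did 0% of all clusters tested, and 2 rows, Dppa2 row 1 and Dppa4 row 2, were lower in every mESCWM line than in every mESCFB line, which was the case for 4.55% of all clusters, and 0 rows were higher without overlap, as 3.58% of clusters were. In mESCKAA against mESCFB, 0 of 12 rows passed limma, again beside 0% of all clusters, and Dppa2 row 1 and Fbxo15 were lower without overlap, which was the case for 3.7% of clusters, and 0 rows were higher without overlap, beside 4.38% of clusters. In mESCWM against mESCKAA, where limma also called 0% of clusters, Fbxo15 alone was higher without overlap, as were 4.03% of clusters, and 0 rows were lower without overlap, beside 4.63%. The rank product called 0.00854% of clusters as higher and 0.0812% as lower in mESCWM against mESCFB, 0.0128% and 0.12% in mESCKAA against mESCFB, and 0.248% and 0.0256% in mESCWM against mESCKAA, with 0 of the 12 rows among them. Which direction held more of these calls depended on the setting. In mESCWM against mESCFB 2 clusters were called higher and 19 lower, but 47 and 6 without FB2. In mESCKAA against mESCFB the counts were 3 and 28, but 46 and 9 over all clusters of the arrays. In mESCWM against mESCKAA they were 58 and 6, but 22 and 41 without WM3. At an unadjusted p under 0.05 limma would have taken 1 row in mESCWM against mESCFB, 2 in mESCKAA against mESCFB and 1 in mESCWM against mESCKAA, beside 5.89%, 4.81% and 6.29% of all clusters.

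The 12 rows lay mostly below 0 in both comparisons with mESCFB. Their median difference was -0.19 in mESCWM against mESCFB and -0.25 in mESCKAA against mESCFB, beside 0.0046 and 0.0067 over all clusters, and 3 of 12 rows were above 0 in each, beside 51.6% and 52.4% of all clusters. Clusters at or above the median level, where all 12 rows lie, had medians of -0.0089 and -0.029 and were above 0 in 47.2% and 39.6%. Both comparisons share the mESCFB lines. Between mESCWM and mESCKAA the median was -0.024, with 5 of 12 rows above 0, beside -0.0068 and 47.8% of all clusters and 0.020 and 55.2% of those at or above the median level. Without the 3 lines with Y-linked signal the medians were -0.26 for mESCWM against mESCFB, -0.061 for mESCKAA against mESCFB and -0.14 for mESCWM against mESCKAA. Without KAA2 alone the median of mESCKAA against mESCFB was -0.11. In these bulk cultures, fewer cells that transcribe a gene and less RNA per cell cannot be told apart. Markers of fibroblasts, the feeder cell type, averaged 5.42 to 5.67 in the mESCWM lines, 5.34 to 5.43 in the mESCKAA lines and 5.21 to 5.28 in the mESCFB lines over 10 genes. Of these, 8 were higher in mESCWM than in mESCFB and 7 in mESCKAA than in mESCFB, with 0 past limma and 3 at an unadjusted p under 0.05 in mESCWM against mESCFB. These were Acta2 with a difference of 1.10 (limma adjusted p = 0.685), Fn1 with 0.73 (adjusted p = 0.819) and Vim with 0.57 (adjusted p = 0.808). Col1a1, Col1a2, Col3a1, Thy1 and Postn differed by 0.29, 0.12, 0.14, 0.069 and 0.073 in that comparison, and Lum and Dcn by -0.11 and -0.13. Postn lay between 2.21 and 2.43, Lum between 1.68 and 1.95 and Dcn between 2.91 and 3.52 in all lines, below the median level of the clusters. Col1a1 (4.59 to 5.32), Col1a2 (4.55 to 5.08) and Col3a1 (4.34 to 4.71) lay near that level. The part of the feeder markers in the differences was not tested.

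**Figure D1:**
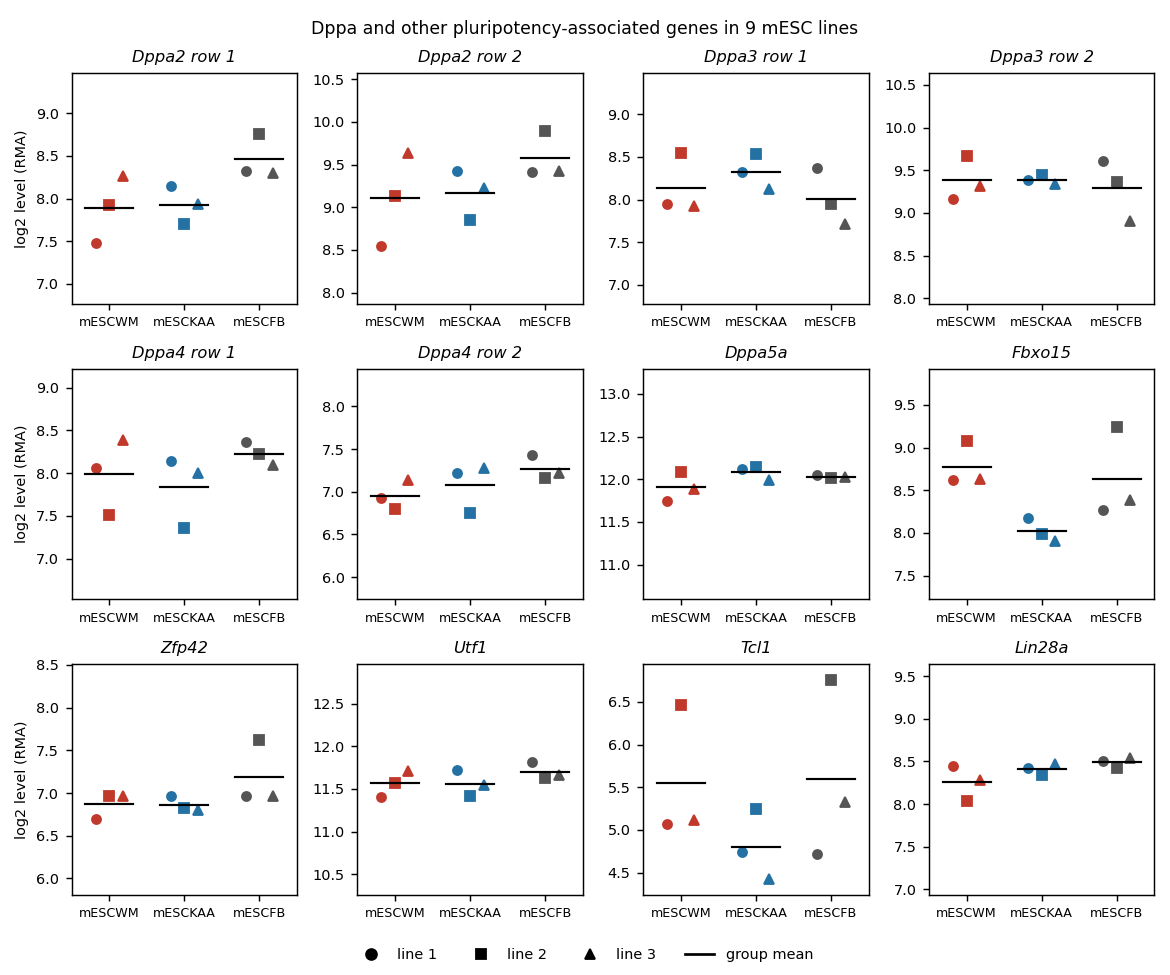
Log2 RMA level of each of the 12 rows (y axis, the same span in every panel) in the mESCWM, mESCKAA and mESCFB lines (x axis). Each point is 1 line, its shape gives the line number and the black bar is the group mean. The 3 mESCKAA lines of Fbxo15 lie below all 6 other lines, and the points of line 2 of mESCWM and mESCFB stand far above the rest for Tcl1.

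Among the Dppa genes, Dppa2 was lowest in the lines from IVF embryos. Row 1 of Dppa2 (cluster 10436053) was at 7.48, 7.93 and 8.27 in WM1, WM2 and WM3, at 8.15, 7.71 and 7.94 in KAA1, KAA2 and KAA3, and at 8.32, 8.76 and 8.31 in FB1, FB2 and FB3. Every mESCFB line was above every IVF line, although WM3 lay close to FB1 and FB3. The difference was -0.57 for mESCWM against mESCFB (SE 0.214, 95% interval -1.06 to -0.084, limma adjusted p = 0.819) and -0.53 for mESCKAA against mESCFB (SE 0.214, 95% interval -1.02 to -0.046, adjusted p = 0.918). Without the lines with Y-linked signal these were -0.83 and -0.49, and without WM1 alone the difference of mESCWM against mESCFB was -0.36. Row 2 of Dppa2 (cluster 10463138) had the same direction, -0.48 and -0.41, but its groups overlapped, since WM3 at 9.64 lay above FB1 and FB3, both at 9.42. In row 2 the difference of mESCWM against mESCFB was -0.20 without WM1 and -0.74 without WM3, and that of mESCKAA against mESCFB was -0.25 without either KAA2 or FB2. The annotation assigns both rows to one gene, so they are no independent measurements, and over the 9 lines they correlated with r = 0.968.

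Dppa4, the partner of Dppa2, lies on the same chromosome, 16. Row 1 (cluster 10436050) was at 8.07, 7.51 and 8.39 in WM1, WM2 and WM3, at 8.14, 7.36 and 8.01 in KAA1, KAA2 and KAA3, and at 8.36, 8.23 and 8.09 in FB1, FB2 and FB3. Line 2 of both IVF groups was low, and the other 7 lines lay between 8.01 and 8.39 with no order by group. Row 2 (cluster 10486954) was at 6.93, 6.79 and 7.13 in the mESCWM lines, at 7.22, 6.76 and 7.28 in the mESCKAA lines and at 7.43, 7.17 and 7.22 in the mESCFB lines, and KAA2 and WM2 were again the lowest lines. The mESCWM lines did not overlap the mESCFB lines in row 2, with a difference of -0.32 (SE 0.154, 95% interval -0.67 to 0.035, limma adjusted p = 0.819). Row 1 gave -0.24 in that comparison, and -0.00086 without WM2. In mESCKAA against mESCFB the rows gave -0.39 and -0.18, and without the lines with Y-linked signal, of which KAA2 is one, row 1 gave -0.086 and row 2 turned to 0.057. Without KAA2 alone they gave -0.15 and -0.021.

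Dppa3 gave small differences above 0 in both comparisons with mESCFB. Row 1 (cluster 10541515) was at 7.94, 8.55 and 7.93 in WM1, WM2 and WM3, at 8.32, 8.54 and 8.13 in KAA1, KAA2 and KAA3, and at 8.37, 7.95 and 7.71 in FB1, FB2 and FB3. WM2 and KAA2, the lines lowest in Dppa4 row 1, were the highest in Dppa3 row 1, and the groups overlapped. The difference was 0.13 for mESCWM against mESCFB (95% interval -0.36 to 0.62) and 0.32 for mESCKAA against mESCFB (95% interval -0.17 to 0.81, limma adjusted p = 0.918). Without FB3 these were -0.016 and 0.17. Row 2 (cluster 10604135) gave 0.089 and 0.10, with WM2 highest at 9.66 and FB3 lowest at 8.91, as in row 1. Leaving out FB3 turned row 2 to -0.10 in mESCWM against mESCFB and to -0.092 in mESCKAA against mESCFB.

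Dppa5a, on chromosome 9, was the most even of the rows, with 11.74, 12.09 and 11.88 in the mESCWM lines, 12.12, 12.15 and 11.99 in the mESCKAA lines, and 12.05, 12.02 and 12.02 in the mESCFB lines. Its range over the 9 lines was 0.40, a factor of 1.32, and its spread within groups was 0.111 (pooled SD), below that of the median cluster at or above the median level (0.162). The mESCWM lines were the lowest on average, with a difference of -0.18 against mESCKAA (SE 0.0962, 95% interval -0.40 to 0.039, limma adjusted p = 0.785), which was -0.10 without WM1 and -0.27 without WM2.

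**Figure D2:**
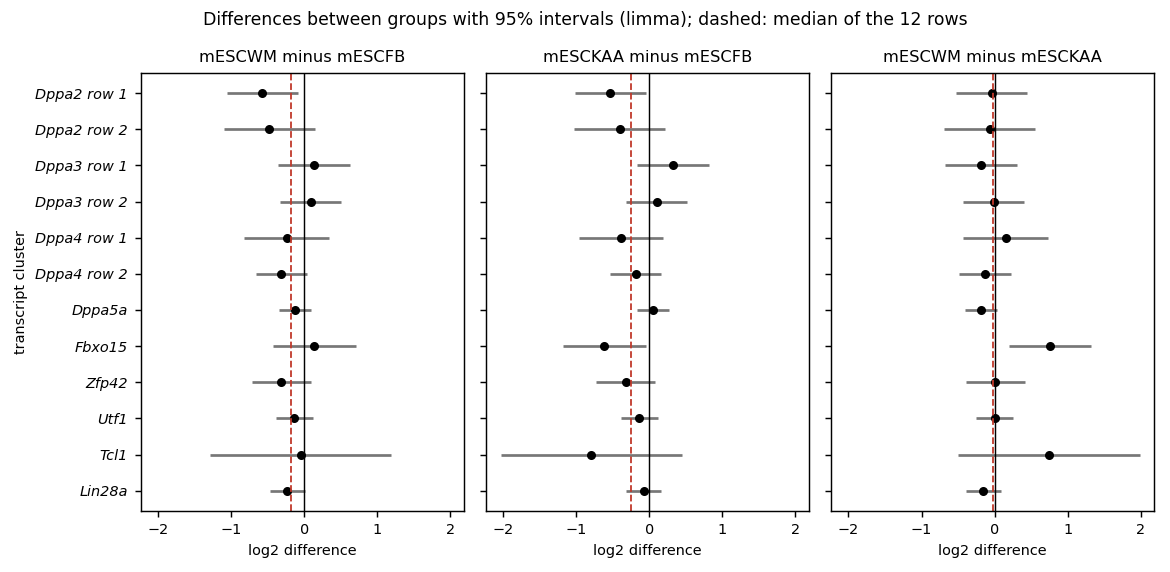
Difference of group means (x axis, log2) for each of the 12 rows (y axis) in mESCWM minus mESCFB, mESCKAA minus mESCFB and mESCWM minus mESCKAA. Points are limma estimates, lines their 95% intervals before any adjustment for the number of clusters, and the dashed line the median of the 12 rows. Dppa2 row 1 lies below 0 in both comparisons with mESCFB and Fbxo15 below 0 in mESCKAA minus mESCFB and above 0 in mESCWM minus mESCKAA, and the interval of Tcl1 is the widest in each panel.

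Of the Oct4 and Sox2 targets, Fbxo15 was lowest in the lines from optimal culture. It stood at 8.62, 9.08 and 8.63 in WM1, WM2 and WM3, at 8.18, 7.98 and 7.90 in KAA1, KAA2 and KAA3, and at 8.27, 9.25 and 8.39 in FB1, FB2 and FB3. All mESCKAA lines were below all 6 other lines, while the mESCWM and mESCFB lines overlapped. Its level in mESCWM exceeded that in mESCKAA 1.69-fold, a difference of 0.75 (SE 0.247, 95% interval 0.19 to 1.32) that did not pass after adjustment (limma adjusted p = 0.771, rank product pfp 0.0952). The difference was -0.62 for mESCKAA against mESCFB (SE 0.247, 95% interval -1.18 to -0.052, adjusted p = 0.918) and 0.14 for mESCWM against mESCFB (95% interval -0.42 to 0.70). Without the lines with Y-linked signal they were 0.81 for mESCWM against mESCKAA, -0.78 for mESCKAA against mESCFB and 0.031 for mESCWM against mESCFB. FB2 set much of the mESCFB level, since without it the difference of mESCKAA against mESCFB was -0.31.

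Zfp42 was at 6.69 in WM1 and at exactly 6.96 in WM2 and WM3, at 6.96, 6.82 and 6.80 in KAA1, KAA2 and KAA3, and at 6.96, 7.63 and 6.96 in FB1, FB2 and FB3. FB2 was high, and 5 lines from all groups shared 1 value to the last digit given. Such ties were common in these values, with at least 1 shared value in 62.3% of clusters and 5 or more lines at 1 value in 9.41%. The differences of -0.31 in mESCWM against mESCFB (95% interval -0.72 to 0.091, limma adjusted p = 0.823) and -0.32 in mESCKAA against mESCFB (95% interval -0.73 to 0.081, adjusted p = 0.918) rested largely on FB2, and were -0.090 and -0.10 without it. The promoter of Zfp42 is shown because it is the one promoter at hand, of the 4 matched (Zfp42, Utf1, Tcl1 and Lin28a) among the 10 genes, that holds the octamer bound by Oct4. The 300 bases from RefSeq (GRCm38.p6, chr8:43306960-43307259, minus strand) span the start of the gene, most of them before it, and carry in capitals the octamer ATGCAAAT, which is on the opposite strand at 186 to 179 bases before the start, and a pair of GC boxes (GGGCGG, opposite strand):
Zfp42: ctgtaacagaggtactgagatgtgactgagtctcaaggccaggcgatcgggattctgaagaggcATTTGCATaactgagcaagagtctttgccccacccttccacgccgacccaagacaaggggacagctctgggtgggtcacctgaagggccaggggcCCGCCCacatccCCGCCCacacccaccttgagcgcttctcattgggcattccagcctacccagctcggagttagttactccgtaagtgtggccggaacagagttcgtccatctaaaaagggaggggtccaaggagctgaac
Over 32851 such promoters searched on both strands, 1.74% held the octamer and 35.7% the GC box, so that the first is rare and the second is not. The Sox core ACAAAG, present in 18.7%, was not found in the windows of the 4 genes. A match is a description of the letters and shows no binding.

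Utf1, a chromatin-bound protein gene on chromosome 7, varied little. It was at 11.41, 11.57 and 11.71 in the mESCWM lines, at 11.72, 11.42 and 11.55 in the mESCKAA lines, and at 11.81, 11.63 and 11.66 in the mESCFB lines. The group means of mESCWM and mESCKAA were both 11.56 and that of mESCFB was 11.70, a difference of -0.14 in either case (SE 0.111, limma adjusted p = 0.873 and 0.918). With each line left out in turn the first ran from -0.21 (without WM3) to -0.059 (without WM1) and the second from -0.22 (without KAA1) to -0.065 (without KAA2). The interval of mESCWM against mESCKAA, -0.25 to 0.25, bounds the difference between the IVF groups.

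Tcl1 varied most of all. It was at 5.07, 6.46 and 5.12 in WM1, WM2 and WM3, at 4.74, 5.25 and 4.42 in KAA1, KAA2 and KAA3, and at 4.71, 6.76 and 5.33 in FB1, FB2 and FB3. FB2 and WM2 stood apart from the other 7 lines, which lay between 4.42 and 5.33, and line 2 was the highest of each group. FB2 exceeded KAA3 by 2.33, or 5.04-fold, and the spread within groups, 0.795 (pooled SD), was larger than in 99.6% of the 11705 clusters at or above the median level. The differences were therefore loosely bounded, at -0.049 for mESCWM against mESCFB (95% interval -1.29 to 1.19), -0.80 for mESCKAA against mESCFB (95% interval -2.04 to 0.45) and 0.75 for mESCWM against mESCKAA (95% interval -0.49 to 1.99, limma adjusted p = 0.807). Without the lines with Y-linked signal they were -0.28, -1.46 and 1.18, and without FB2 the difference of mESCKAA against mESCFB was -0.22 and that of mESCWM against mESCFB 0.53. Without WM2 the difference of mESCWM against mESCKAA was 0.29. Markers of primitive endoderm, which can arise in mESC cultures, were highest in KAA1 and FB1 (means of 8 genes of 6.15 and 5.82, against 4.81 to 5.16 in the other lines), where Tcl1 was low, but Tcl1 was lowest in KAA3. Their part in the level of Tcl1 was not tested.

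The promoter of Tcl1 is shown as that of the row with the widest range. It (GRCm38.p6, chr12:105222688-105222987, minus strand) held a pair of GC boxes on the opposite strand, at 64 to 59 and 54 to 49 bases before the start, in capitals, and no octamer:
Tcl1: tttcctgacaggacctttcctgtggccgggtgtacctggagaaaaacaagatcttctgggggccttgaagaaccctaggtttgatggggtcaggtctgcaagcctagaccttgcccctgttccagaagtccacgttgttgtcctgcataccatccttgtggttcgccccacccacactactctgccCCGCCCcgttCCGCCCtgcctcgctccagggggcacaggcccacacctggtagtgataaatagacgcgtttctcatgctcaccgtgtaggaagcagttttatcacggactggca
Both windows held 11 CpG dinucleotides, against a median of 7 over all promoters. The other 6 genes were not matched to a promoter.

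Lin28a, on chromosome 4, was at 8.44, 8.04 and 8.29 in WM1, WM2 and WM3, at 8.43, 8.34 and 8.47 in KAA1, KAA2 and KAA3, and at 8.50, 8.43 and 8.54 in FB1, FB2 and FB3. The mESCKAA and mESCFB lines lay between 8.34 and 8.54 and WM2 was low. The difference of mESCWM against mESCFB was -0.23 (SE 0.105, 95% interval -0.47 to 0.0069, limma adjusted p = 0.819), and WM1 lay above FB2. Without WM2 it was -0.12.

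**Figure D3:**
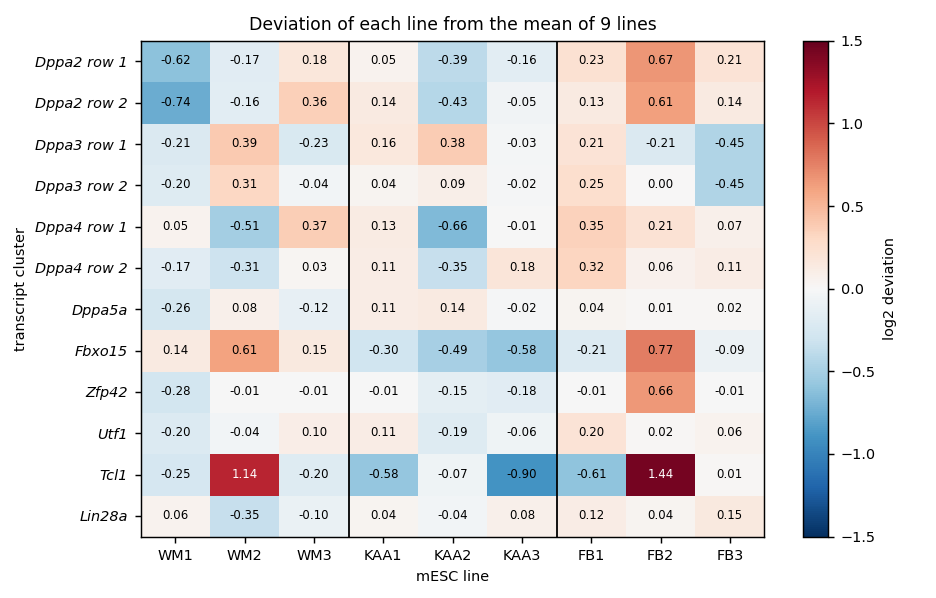
Deviation of each line (x axis) from the mean of the 9 lines on the log2 scale for each of the 12 rows (y axis), printed and coloured from blue (below the mean) to red (above). The darkest red cells are those of Tcl1 in WM2 (1.14) and FB2 (1.44), and WM1 is lowest for both rows of Dppa2.

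Single lines stood apart in several rows at once. FB2 was the highest line in both rows of Dppa2, in Fbxo15, Zfp42 and Tcl1, and was above the 9-line mean in 11 of 12 rows, while WM1 was the lowest line in both rows of Dppa2, in Dppa5a, Zfp42 and Utf1. KAA3 was above the mean in 2 of 12 rows, and KAA2 and WM1 in 3 each. FB2 is also the line with the most raised X-linked clusters. Its value was 0.29, against 0.14 in FB3 and -0.10 to -0.014 in FB1 and the IVF lines. The raised lines, FB2 and FB3, are both mESCFB lines. Whether the raised X-linked level bears on the levels here, or on the differences from mESCFB, was not tested. Of the 12 rows, 9 had a larger spread within groups than the median cluster at or above the median level, and Dppa5a, Lin28a and Utf1 had a smaller one.

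Correlations between the rows were computed over the 9 lines for all 66 pairs, of which 63 join different genes, with exact permutation tests adjusted over the 66. Of the 63, 41 were positive and 2 passed by Pearson's r. Fbxo15 and Tcl1 correlated with r = 0.883 (p = 0.00298, adjusted 0.0492) and Spearman's rho = 0.733 (p = 0.0311, adjusted 0.220, exact permutation). Without FB2 and WM2, the lines farthest from the median of Fbxo15, r was 0.490, so that the relation rested on those lines. Dppa2 row 1 and Zfp42 correlated with r = 0.855 (p = 0.00132, adjusted 0.0291) and rho = 0.822 (p = 0.00794, adjusted 0.131, exact permutation), and with r = 0.737 without FB2 and WM1. After quantile normalization the second pair no longer passed (adjusted p = 0.104, exact permutation). On deviations from the group means, which leave out differences between groups, r was 0.912 for Fbxo15 and Tcl1 and 0.767 for Dppa2 row 1 and Zfp42. With the lines permuted within groups 0 of 66 pairs passed. The smallest p possible there is 0.00463, at which no pair could pass on its own after adjustment over the 66. Dppa4 row 1 and Dppa3 row 1 went in opposite directions (r = -0.625, adjusted p = 0.331, exact permutation), which did not pass.

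**Figure D4:**
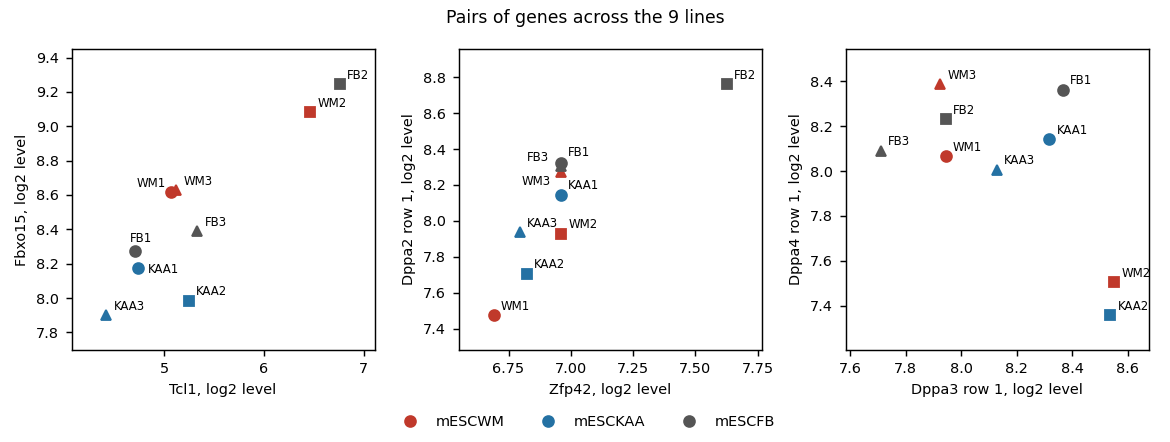
Log2 levels of pairs of rows in the 9 lines, 1 point per line, coloured by group. Fbxo15 against Tcl1 has FB2 and WM2 at the upper right, Dppa2 row 1 against Zfp42 has FB2 at the upper right and WM1 at the lower left with 5 lines at 1 value of Zfp42, and Dppa4 row 1 against Dppa3 row 1 has WM2 and KAA2 at the lower right.

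The clusters whose levels over the 9 lines were most like each row were looked up among 10919 clusters with 1 symbol at or above the median level, as a description with no test. With so many clusters searched over 9 lines, the highest r was 0.919 or more for every row, and it shows no regulation. Pus7, a pseudouridine synthase, was the most like Dppa4 row 1 (r = 0.995), ahead of Map7d3 (r = 0.962) and Dnaja1 (r = 0.954), and Fubp3 (r = 0.967), Knop1 (r = 0.957) and Senp2 (r = 0.955) were the most like Dppa4 row 2. Utf1 was followed most closely by Mapre2 (r = 0.968), Sall4 (r = 0.959), a zinc finger factor of the Oct4 network, and Kdm3a (r = 0.956), a histone H3K9 demethylase. Sugt1 (r = 0.976), Arhgef39 (r = 0.955) and Lonrf1 (r = 0.941) came first for Fbxo15, Fam25c (r = 0.955), Pycard (r = 0.953) and Ccnd3 (r = 0.947) for Tcl1, and Tspan17 (r = 0.975), R3hdml (r = 0.971) and Ube2c (r = 0.956) for Zfp42. For Dppa3 they were Gps2 (r = 0.919), Dpp3 (r = 0.912) and Mutyh (r = 0.900) in row 1 and Pelo (r = 0.973), Tada2a (r = 0.958) and Btnl5-ps (r = 0.951) in row 2. Dppa5a had Myo18b (r = 0.940), Tmem18 (r = 0.935) and Vstm2l (r = 0.934), and Lin28a had Aamdc (r = 0.972), Slc40a1 (r = 0.971) and Slc25a3 (r = 0.971). Dppa2 row 1 had Slc39a4 (r = 0.964) and Mrpl17 (r = 0.930), and row 2 had Pak1ip1 (r = 0.924) and Aire (r = 0.921). The rows of Dppa2 had Eif2d (r = 0.932 and 0.917) in common among their first 3, and those of Dppa3 and Dppa4 had none.

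Related genes were described by lists, with counts by direction. Beside these, 47.2% of clusters at or above the median level were higher in mESCWM than in mESCFB and 39.6% in mESCKAA than in mESCFB. Over all clusters tested the shares were 51.6% and 52.4%. Among 16 core and naive transcription factors, 9 were lower in mESCWM than in mESCFB (list median -0.059) and 15 in mESCKAA than in mESCFB (list median -0.17), and 0 passed limma. Pou5f1, which encodes Oct4, averaged 10.10 ± 0.047 in mESCWM, 10.19 ± 0.099 in mESCKAA and 10.36 ± 0.062 in mESCFB (SD, n = 3 each), with a difference of -0.26 for mESCWM against mESCFB (unadjusted p = 0.00913, limma adjusted p = 0.819). Nanog averaged 9.81 ± 0.65 in mESCWM and 9.19 ± 0.61 in mESCKAA. Among 16 further transcripts associated with mESC, 10 were lower in mESCWM than in mESCFB (list median -0.14) and 15 in mESCKAA than in mESCFB (list median -0.21), with 0 past limma. Tdgf1 (Cripto), a Nodal coreceptor, averaged 11.61 ± 0.021 in mESCWM and 11.88 ± 0.056 in mESCFB (limma adjusted p = 0.733). Eras, an mESC-specific Ras encoded on the X chromosome, averaged 7.83 ± 0.17 in mESCKAA and 8.41 ± 0.48 in mESCFB (adjusted p = 0.918).

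The neighbourhood of single members gave no call by limma either. The 5 measured Tcl1b paralogs of Tcl1 were higher in mESCKAA than in mESCFB by 0.013 (Tcl1b3) to 0.35 (Tcl1b4, 4.07 ± 0.26 in mESCKAA and 3.72 ± 0.29 in mESCFB, adjusted p = 0.918). All 5 were below the median level of the clusters, with means in mESCKAA and mESCFB of 1.79 and 1.73 for Tcl1b2 and 1.88 and 1.87 for Tcl1b3, and near-identical copies may share signal. Of 11 genes of the Lin28 and let-7 axis, 8 were higher in mESCWM than in mESCFB. Tut7, a terminal uridylyltransferase that works with Lin28a on let-7 precursors, averaged 5.52 ± 0.18 in mESCWM, 5.18 ± 0.10 in mESCKAA and 5.15 ± 0.15 in mESCFB (0.37 for mESCWM against mESCFB, adjusted p = 0.819). Of 11 measured genes of threonine, glycine and one-carbon metabolism, the pathway that Tdh feeds, 7 were lower in mESCWM and 9 in mESCKAA than in mESCFB. Gcsh, a subunit of the glycine cleavage system, averaged 9.23 ± 0.14 in mESCWM, 9.21 ± 0.026 in mESCKAA and 9.50 ± 0.11 in mESCFB. Of 8 genes of DNA methylation, a list of the enzymes and Uhrf1, the partner of Dppa3, 7 were lower in mESCWM and 6 in mESCKAA than in mESCFB, among them Dnmt3l, which also stands among the mESC transcripts above, at 8.86 ± 0.52 in mESCWM, 9.05 ± 0.50 in mESCKAA and 9.59 ± 0.14 in mESCFB.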

How the data were processed

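RNA of 9 mESC lines was hybridized to Affymetrix Mouse Gene ST arrays, 1 per line. The deposited values are log2 levels that the authors made with RMA, with Affymetrix Expression Console and R 3.1.0 named in the submitters' processing notes. The genome build was not given in the sources used here. The labels gave the group and the number of each line.

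The main test was limma 3.58.1 (R 4.3.3), with a mean for each group estimated from all 9 lines by lmFit, variances moderated by eBayes, and p-values of the 23410 clusters with a gene adjusted by Benjamini-Hochberg and called under 0.05. The study's own methods name the rank product but no threshold, and it was run here with 9 pairwise differences of lines, 100 permutations and a pfp under 0.05 in numpy 2.4.6 (Python 3.11.15). Correlations used scipy 1.17.1, tables pandas 2.3.3, robust fits statmod 1.5.0 and plots matplotlib 3.10.9. Both tests were tested on simulated data. The members and the 14 gene lists were chosen with earlier results of these data known. The text names all member rows, up to 3 genes per list with the smallest unadjusted p in a comparison, and the markers that check the labels. It also names the other fibroblast and trophectoderm markers (added after their values were seen) and the 3 clusters most like each row by Pearson's r. Lists took 1 cluster per gene. Promoters and chromosomes came from RefSeq (GRCm38.p6), which holds promoters for 4 of the 10 genes in the table used. Alternatives were quantile normalization, median centring, all clusters, clusters at or above the median level, other limma settings, a pfp under 0.1, the line number as a block, and fits without each line in turn or without FB1, KAA2 and WM3. The number of arrays limits the precision.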

Additional observations from a re-analysis of the deposited data

How the results depend on the processing

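No row of the 12 passed limma under any of the alternatives run (468 differences, lowest adjusted p 0.405). The direction was kept in 432 of the 468 and turned in 36. Part of the 432 could not have turned. A change in the clusters tested, in the limma settings or to the line number as a block leaves each difference as it was. Without FB1, KAA2 and WM3, Dppa4 row 2 turned to 0.057 in mESCKAA against mESCFB, and in mESCWM against mESCKAA Dppa3 row 1 turned to 0.024, Dppa3 row 2 to 0.048, Dppa4 row 1 to -0.29, Zfp42 to -0.053 and Utf1 to -0.15. Quantile normalization turned Zfp42 to -0.022 and Utf1 to -0.0055 in mESCWM against mESCKAA, and median centring turned Utf1 to -0.00084. Leaving out each line in turn gave, in mESCWM against mESCFB, -0.073 to 0.31 for Dppa3 row 1, -0.10 to 0.25 for Dppa3 row 2, -0.043 to 0.44 for Fbxo15 and -0.50 to 0.53 for Tcl1. It gave -0.092 to 0.26 for Dppa3 row 2 in mESCKAA against mESCFB. In mESCWM against mESCKAA it gave -0.23 to 0.17 and -0.34 to 0.21 for Dppa2 rows 1 and 2, -0.15 to 0.10 for Dppa3 row 2, -0.088 to 0.39 for Dppa4 row 1, -0.035 to 0.10 for Zfp42 and -0.074 to 0.081 for Utf1. The median of the 12 rows was -0.23 to -0.13 for mESCWM against mESCFB, -0.32 to -0.11 for mESCKAA against mESCFB and -0.086 to 0.10 for mESCWM against mESCKAA with each line left out, and -0.061 for mESCKAA against mESCFB and -0.14 for mESCWM against mESCKAA without FB1, KAA2 and WM3. The cause was not tested.

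Over all clusters, limma called 0 in each comparison, 0 to 1 in mESCWM against mESCFB and in mESCWM against mESCKAA with each line left out (1 without WM3), and 0 in mESCKAA against mESCFB. The rank product called 21 clusters in mESCWM against mESCFB (53 at a pfp under 0.1, 39 over all clusters, 2 to 53 with each line left out), 31 in mESCKAA against mESCFB (68, 55, 2 to 77, and 11 at or above the median level) and 64 in mESCWM against mESCKAA (112, 129, 28 to 65, and 23). At a pfp under 0.1 this takes in 1 of the 12 rows, Fbxo15 in mESCWM against mESCKAA (0.0952), and under no setting run did a row reach 0.05. Of the pairs of rows 4 passed, 2 of them of different genes, and 3 passed after quantile normalization. On deviations from the group means 0 passed, but there the smallest p possible is too large for a pair to pass on its own. With the replicate block, a fit that takes the line numbers as blocks, limma called 0 clusters in each comparison. Each number occurs once in each group, so the block cannot change the differences, and the medians stayed at -0.19, -0.25 and -0.024 by construction. Same-numbered lines correlated in their deviations with r of -0.01 to 0.33, and 8 of 9 lines were closest to a line of their own number, so that the numbers may mark a shared step, but the labels do not say so and the numbers were not used as pairs.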

Other observations

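FB2 and WM2, the lines highest in Tcl1 and Fbxo15, were also the highest lines over other lists of pluripotency-associated genes. The mean level of the 16 core and naive transcription factors was 8.01 in WM2 and 7.88 in FB2, against 7.39 to 7.60 in the other 7 lines, and that of the 16 further mESC transcripts was 8.37 in WM2 and 8.53 in FB2, against 7.84 to 8.15. Of 18 listed genes of the two-cell-like state, a rare state of mESC that transcribes genes of the early embryo, 10 were measured. Their mean level was 3.38 in WM2 and 4.19 in FB2, against 2.67 to 3.06 in the other lines. All these means were below the median level of the clusters (4.67). No test was made, since FB2 and WM2 were singled out by their levels.

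Of the remaining lists, Gm5662 of the two-cell-like genes was called by the rank product, lower in mESCKAA (1.72 ± 0.25) than in mESCFB (3.46 ± 2.16) and higher in mESCWM (3.73 ± 0.75) than in mESCKAA (SD, n = 3 each), and limma called none. The group means of Gm5662 lay below the median level of the clusters (4.67). Among 10 genes of primordial germ cells, in which Dppa3 is also transcribed, Dnd1, an RNA-binding protein gene, averaged 5.31 ± 0.076 in mESCWM, 5.10 ± 0.078 in mESCKAA and 4.83 ± 0.20 in mESCFB (limma adjusted p = 0.685 for mESCWM against mESCFB). Among 8 epiblast priming genes, Otx2, a transcription factor of the primed state, averaged 5.29 ± 0.19 in mESCWM and 6.08 ± 0.41 in mESCFB (limma adjusted p = 0.819), and Zic2 averaged 6.24 ± 0.26 in mESCWM and 5.46 ± 0.37 in mESCKAA (limma adjusted p = 0.752). Of 8 primitive endoderm genes, 7 were lower in mESCWM and 7 higher in mESCKAA than in mESCFB, and 0 passed limma. Sox7 averaged 4.84 ± 0.39 in mESCWM and 5.49 ± 0.25 in mESCFB (limma adjusted p = 0.819). Of 7 trophectoderm genes, Krt8 and Krt18 stood at 10.76 and 11.26 or above in every line, and 0 passed limma. The other members of the list lay far lower. Elf5 was between 2.87 and 3.24 over the lines, below the median level of the clusters (4.67). Cdx2 lay between 4.62 and 5.98, Eomes between 4.62 and 5.44, Gata3 between 5.03 and 6.16 and Hand1 between 5.85 and 7.13.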
